A study of Mus musculus with 20 samples.

Results

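The 35 genes followed here are interferon-stimulated genes, picked by symbol as a module of the interferon response. All 35 were found among the 24062 genes counted in each of 20 poly(A) RNA-seq libraries from inguinal white fat (iWAT, a subcutaneous depot) and from the pituitary. The mice were male C57BL/6N on chow, with or without a germline deletion of the gene for KLF14, a zinc finger factor of the Krüppel-like family. Each tissue gave 5 libraries labelled KO (21 weeks of age for replicates 31, 32, 35 and 66 and 19 weeks for replicate 50) and 5 libraries labelled WT (21 weeks for replicates 33 and 34, 19 weeks for 48 and 49, and 18 weeks for 56). A replicate number occurs once in each tissue, but no label says that a number is 1 animal, and the way the deletion was made is not given in the labels. The p-values therefore measure the spread between these libraries, which may be partly technical.

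Type I interferons bind a receptor made of Ifnar1 and Ifnar2, and the kinases Jak1 and Tyk2 then set off the assembly of a complex with Stat2 and Irf9 that binds a DNA element called ISRE in the promoters of induced genes. Type II interferon, encoded by Ifng, acts in large part through a second element, GAS. The induced proteins sense foreign nucleic acid, degrade or sequester viral RNA, block viral entry and budding, and load antigen onto MHC class I. Immune cells such as macrophages and dendritic cells express many of these genes, and most cell types keep a low level of them without infection.

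Total counts were 14.8 to 18.7 M in the iWAT libraries and 13.6 to 17.6 M in the pituitary libraries. Tissue markers fitted the tissue labels: 8 adipocyte markers summed to 5567 to 19820 CPM (counts per M counts, TMM-scaled) in iWAT and to 17.6 to 24.0 CPM in the pituitary, where Lep was at 0 in all 10 libraries. In iWAT, 9 pituitary hormone cell markers summed to 123 CPM in labelled KO replicate 32 and to no more than 2.0 CPM in the other 9 libraries, against 100500 CPM or more in every pituitary library. Klf14 counts did not bear out the genotype labels: in the pituitary it averaged 33.2 ± 3.32 CPM in libraries labelled KO and 16.7 ± 2.12 CPM in libraries labelled WT (SD, n = 5 each, exact two-sided permutation p = 0.00794, the smallest this test can give). In iWAT it averaged 1.5 ± 0.810 CPM in libraries labelled KO and 0.859 ± 1.14 CPM in libraries labelled WT (SD, n = 5 each, exact permutation p = 0.349). Replicate 50, labelled KO, stood apart in both tissues: its neutrophil markers summed to 130.9 CPM in iWAT, where none of the other 9 libraries exceeded 5.58 CPM, and to 323.3 CPM in the pituitary, where none of the others exceeded 60.8 CPM.

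The RefSeq promoter table (build GRCm38.p6) held an entry for 27 of the 35 genes, and the 250 bases before each start were searched for the core of ISRE (GAAA, any 2 bases, then GAAA again) on both strands and for TTCNNNGAA, the GAS core, which reads the same on both strands. A gene with several entries counted as holding a motif where any of them did. The ISRE core was present in 11 of the 27 (40.7%) and in 567 of 16781 genes of the files with an entry (3.38%). GAS was present in 5 of the 27 (18.5%) and in 7.88% of all genes with an entry, and either element in 14 (51.9%) and 10.7%. Matches to the 2 motifs may overlap, as they do in Bst2. No match says only that these letters are not in this window. Usp18, Dhx58, Zbp1, Oas2, Mx1, Mx2, Rtp4 and Parp14 had no matching entry.

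The promoters of Bst2, Ifit3, Gbp3 and Ifit1 are shown because each holds at least 2 matches, and because these were, of the 6 promoters with 2 or more, the 4 of the genes with the highest level in iWAT. They run 5′ to 3′ along the gene and end at the base before the RefSeq start, and capitals mark the matches. Bst2 lies at chr8:71537473-71537722 on the minus strand and carries a GAS match (positions -136 to -128 from the start) that overlaps the first of 2 overlapping ISRE matches (-130 to -121 and -124 to -115). Ifit3 lies at chr19:34583279-34583528 on the plus strand, with ISRE matches at -156 to -147 and -122 to -113. Gbp3 has 2 entries. The one shown lies at chr3:142559794-142560043 on the plus strand, with overlapping ISRE matches at -45 to -36 and -39 to -30. The other, at chr3:142560106-142560355, held no match. Ifit1 lies at chr19:34640639-34640888 on the plus strand, with ISRE matches at -104 to -95 and -85 to -76.
Bst2: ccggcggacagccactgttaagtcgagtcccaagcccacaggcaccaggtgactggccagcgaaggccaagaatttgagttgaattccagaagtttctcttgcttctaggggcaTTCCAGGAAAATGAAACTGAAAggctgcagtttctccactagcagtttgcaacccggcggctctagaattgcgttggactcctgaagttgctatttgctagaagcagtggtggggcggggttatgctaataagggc
Ifit3: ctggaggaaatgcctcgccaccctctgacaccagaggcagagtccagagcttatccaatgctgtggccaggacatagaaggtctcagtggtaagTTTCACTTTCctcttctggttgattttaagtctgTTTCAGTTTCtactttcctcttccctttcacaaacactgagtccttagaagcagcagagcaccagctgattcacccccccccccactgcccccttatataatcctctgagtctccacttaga
Gbp3: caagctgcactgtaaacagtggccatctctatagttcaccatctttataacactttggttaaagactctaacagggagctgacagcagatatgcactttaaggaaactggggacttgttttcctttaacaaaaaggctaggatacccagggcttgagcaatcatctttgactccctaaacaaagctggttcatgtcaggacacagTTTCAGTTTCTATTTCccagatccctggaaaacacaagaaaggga
Ifit1: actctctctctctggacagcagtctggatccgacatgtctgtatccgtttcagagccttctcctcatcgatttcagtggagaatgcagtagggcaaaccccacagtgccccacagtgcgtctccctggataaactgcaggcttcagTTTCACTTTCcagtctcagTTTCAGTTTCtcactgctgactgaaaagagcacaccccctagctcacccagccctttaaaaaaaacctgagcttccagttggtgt

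Levels between genes were compared as CPM per kb of counted exon. In iWAT the 5 highest of the 35 were Ifitm3, a membrane protein that blocks entry of viruses (104.4 CPM per kb on average over 10 libraries), Psmb8, an immunoproteasome subunit (82.7), Tap1, a subunit of the peptide transporter into the endoplasmic reticulum (62.8), Psmb9, a second immunoproteasome subunit (59.0), and Bst2, or tetherin, which holds budding virions at the cell surface (54.9). In the pituitary the 5 highest were Ifitm3 (39.2 CPM per kb), Ifi35 (25.9), Irf1, a transcription factor (17.6), Psmb8 (15.98) and Psmb9 (13.9). The lowest in both tissues was Oas3, an oligoadenylate synthetase, at 2.93 CPM per kb in iWAT and 0.188 CPM per kb in the pituitary. Ifitm3, Psmb8 and Psmb9 were thus among the 5 highest in both tissues.

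iWAT was then compared with the pituitary, separately within each label, in 2 comparisons that share no library. A gene was called where edgeR's quasi-likelihood test gave an adjusted p (Benjamini-Hochberg, over all genes tested) under 0.05. In labelled KO libraries 32 of 35 genes were called higher in iWAT and 0 lower, where 37.8% of all 16905 genes tested were called higher and 37.3% lower. In labelled WT libraries 32 of 35 were called higher and 0 lower, where 38.9% of 17023 genes were called higher and 40.2% lower. These were the same 32 genes, and Ifi35, Mx2 and Oasl2 were not called in either. At least 2-fold higher were 27 of 35 in labelled KO (22.4% of all genes) and 29 of 35 in labelled WT (22.5%). The median log2 fold change of the 35 was 1.31 in labelled KO (0.02 over all genes tested) and 1.78 in labelled WT (-0.01 over all genes tested). Every iWAT library lay above every pituitary library of its label for 23 of the 35 genes in labelled KO (28.2% of all genes tested) and for 26 in labelled WT (33%). Ifit3, Oas1a and the Gbp genes have near-identical paralogues, so the split of their reads between the copies is uncertain, and Gbp2 shares exon bases with Mir6381. In bulk tissue, fewer cells of a type and less RNA per cell cannot be told apart.

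The widest tissue difference was that of Mx1, a dynamin-like GTPase that blocks influenza virus and whose allele in C57BL/6 mice is known to encode no functional protein. Mx1 was at 45.9, 33.9, 30.5, 5.00 and 20.4 CPM in iWAT and at 1.41, 0.470, 1.01, 1.4 and 0.316 CPM in the pituitary, in labelled KO replicates 31, 32, 35, 50 and 66. In labelled WT replicates 33, 34, 48, 49 and 56 it was at 32.9, 28.7, 77.8, 23.4 and 21.1 CPM in iWAT and at 0.959, 0.891, 1.13, 0.411 and 0.808 CPM in the pituitary. The tissues did not overlap, and iWAT replicate 50 was the only iWAT library under 20 CPM. The log2 fold change was 4.93 (SE 0.61, edgeR adjusted p = 2.738e-05) in labelled KO and 5.43 (SE 0.45, edgeR adjusted p = 5.736e-07) in labelled WT. Its relative Mx2 was not called: it had 3.22 to 17.7 CPM in iWAT and 5.88 to 7.09 CPM in the pituitary of labelled KO, and 3.83 to 13.8 CPM in iWAT and 5.28 to 6.88 CPM in the pituitary of labelled WT (log2 fold changes 0.31, SE 0.39, and 0.62, SE 0.29). The wide iWAT range of Mx2 covered all of its pituitary values.

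All 5 genes of signalling and transcription were called higher in iWAT under both labels. Irf7, the factor that amplifies type I interferon production, showed the widest difference of these. It was at 71.5, 49.8, 38.3, 28.5 and 31.6 CPM in iWAT and at 7.88, 5.29, 6.61, 9.01 and 6.89 CPM in the pituitary, in labelled KO replicates 31, 32, 35, 50 and 66. In labelled WT replicates 33, 34, 48, 49 and 56 it was at 113, 41.4, 87.4, 59.9 and 30.7 CPM in iWAT and at 8.10, 5.48, 10.4, 5.35 and 5.97 CPM in the pituitary. The lowest iWAT library was above the highest pituitary library, and the log2 fold change was 2.68 (SE 0.27) in labelled KO and 3.24 (SE 0.37) in labelled WT. Stat2 and Irf9, parts of the ISRE-binding complex, Irf1 and Usp18, a protease that removes ISG15 from proteins and dampens receptor signalling, had log2 fold changes of 1.06 to 1.16 in labelled KO and of 1.15 to 1.30 in labelled WT.

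All 5 nucleic acid sensing genes were called as well, none with a difference as wide as that of Irf7. Without replicate 31, 32 or 35 the call of Dhx58, which encodes the RNA helicase LGP2, was lost in labelled KO. Zbp1, a sensor of Z-form nucleic acid that can trigger cell death, had the widest of them, a log2 fold change of 1.54 (SE 0.34) in labelled KO and 2.18 (SE 0.36) in labelled WT. Ddx58, which encodes the RNA helicase RIG-I, followed in labelled WT with 1.61 (SE 0.14), against 1.49 (SE 0.21) in labelled KO. Ifih1, which encodes the RNA helicase MDA5, differed least: it had 51.7 to 65.2 CPM in iWAT and 42.1 to 53.0 CPM in the pituitary of labelled KO, and 47.6 to 85.6 CPM in iWAT and 43.1 to 51.3 CPM in the pituitary of labelled WT. The groups of Ifih1 overlapped, its log2 fold change was 0.36 (SE 0.09) in labelled KO and 0.46 (SE 0.15) in labelled WT, and without replicate 33 it was not called in labelled WT.

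Of 10 genes whose products act on RNA or in ISG15 conjugation, 9 were called higher under both labels. The oligoadenylate synthetases, which make the second messenger that activates RNase L, were among the widest. Oas3 was at 20.8, 10.0, 10.4, 4.65 and 8.34 CPM in iWAT and at 0.652, 0.470, 0.441, 1.77 and 0.696 CPM in the pituitary of labelled KO replicates 31, 32, 35, 50 and 66. In labelled WT replicates 33, 34, 48, 49 and 56 Oas3 was at 29.8, 9.49, 27.2, 11.4 and 6.21 CPM in iWAT and at 1.14, 1.64, 0.831, 0.549 and 0.684 CPM in the pituitary. Its tissues did not overlap, with a log2 fold change of 3.83 (SE 0.49) in labelled KO and 4.12 (SE 0.52) in labelled WT. Oas2 had log2 fold changes of 3.59 (SE 0.28) and 3.73 (SE 0.39), and Oasl1, which inhibits translation of Irf7 mRNA in mouse cells, 3.07 (SE 0.44) and 3.42 (SE 0.46), in labelled KO and labelled WT in that order. In labelled KO the call of Rsad2 was lost without replicate 31 or 32 and that of Ifit3 without 32. Oas3, Oas2 and Oasl1 were low in the pituitary, where none exceeded 2.82 CPM in any library.

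Oasl2, the neighbour of Oasl1 on chromosome 5, did not share that pattern. It was at 41.9, 23.1, 13.7, 21.7 and 13.5 CPM in iWAT and at 34.3, 35.1, 30.7, 43.1 and 34.0 CPM in the pituitary of labelled KO replicates 31, 32, 35, 50 and 66. In labelled WT replicates 33, 34, 48, 49 and 56 it was at 68.4, 19.4, 27.4, 28.4 and 9.84 CPM in iWAT and at 33.1, 36.0, 34.8, 32.2 and 33.5 CPM in the pituitary. In 8 of 10 iWAT libraries Oasl2 was below every pituitary library, and iWAT replicates 31 and 33 were the exceptions. The log2 fold change was -0.57 (SE 0.29, edgeR adjusted p = 0.0927) in labelled KO and -0.13 (SE 0.39, edgeR adjusted p = 0.764) in labelled WT. With the quality weights of limma voom Oasl2 was called lower in iWAT under both labels (log2 fold changes -0.90, adjusted p = 0.00299, and -0.76, adjusted p = 0.0437), and with edgeR in labelled KO it was called lower without replicate 31 (-0.93, adjusted p = 0.00366).

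Of the other GTPases and membrane factors, Gbp2 and Gbp3, guanylate-binding proteins that attack pathogen vacuoles, Ifitm3 and Bst2 were all called higher in iWAT, with log2 fold changes of 0.50 to 2.43 in labelled KO and of 0.85 to 2.76 in labelled WT. The call of Gbp3 in labelled KO was lost without replicate 31, 32 or 35 (log2 fold changes 0.38, 0.48 and 0.46). Among the other induced genes the chemokine Cxcl10, which attracts activated T cells, had the widest difference, with 5.04 to 14.5 CPM in iWAT and 0.353 to 1.03 CPM in the pituitary of labelled KO, and 7.38 to 14.5 CPM in iWAT and 0.373 to 0.720 CPM in the pituitary of labelled WT. Its log2 fold change was 3.92 (SE 0.37) in labelled KO and 4.23 (SE 0.28) in labelled WT. Ifi35 was the flat member of this group, with 28.9 to 38.8 CPM in iWAT and 33.7 to 41.4 CPM in the pituitary of labelled KO, and 31.8 to 41.8 CPM in iWAT and 30.0 to 36.9 CPM in the pituitary of labelled WT (log2 fold changes -0.03, SE 0.09, and 0.18, SE 0.10). The 3 antigen processing genes were called under both labels: Tap1 had log2 fold changes of 2.94 (SE 0.14) and 3.29 (SE 0.16), Psmb8 of 2.21 (SE 0.13) and 2.61 (SE 0.11) and Psmb9 of 1.93 (SE 0.15) and 2.32 (SE 0.13), labelled KO before labelled WT. The 11 genes with an ISRE core in their promoter had a median log2 fold change of 2.02 in labelled KO and 2.43 in labelled WT. The 16 with an entry but no ISRE core, some of them with a GAS match, had 1.24 and 1.60, and the ranges overlapped widely.

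**Figure D1:**
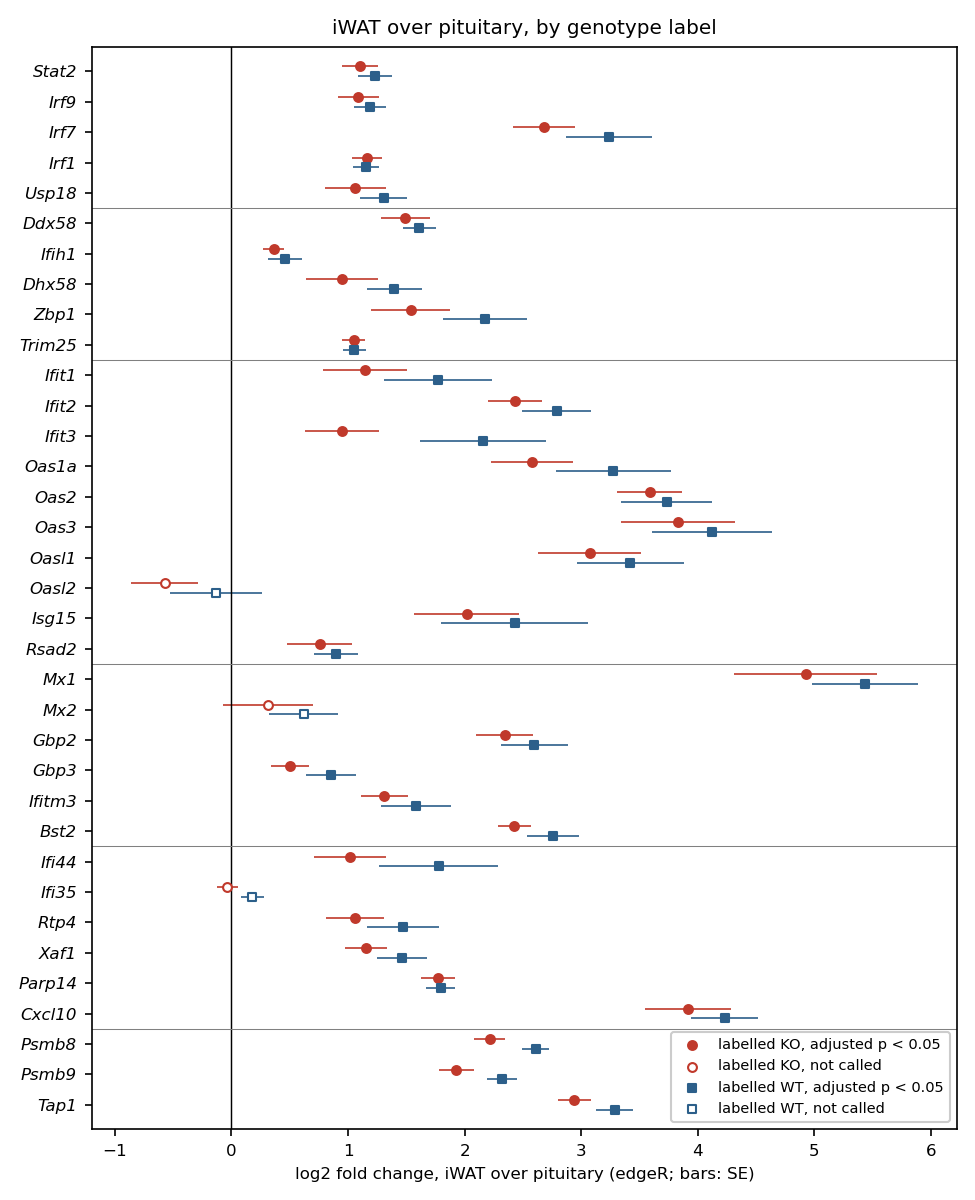
The log2 fold change of each of the 35 genes, iWAT over pituitary, is plotted on the x axis with its standard error as a bar, for labelled KO (red circles) and labelled WT (blue squares), in blocks by role. Filled symbols mark the 32 genes called higher under both labels, and open symbols mark Oasl2, Mx2 and Ifi35, whose values run from -0.57 (Oasl2, labelled KO) to 0.62 (Mx2, labelled WT).

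Markers of most immune cell types moved with the tissue contrast, and no neutrophil marker was called higher in iWAT. Of 3 neutrophil markers tested, 0 were called higher and 1 lower in iWAT under both labels. Their median log2 fold change was -1.16 in labelled KO and -1.27 in labelled WT. The lower marker, named after its values were seen, was Mmp8, with 140 counts in iWAT and 7673 in the pituitary over 10 libraries. The other 2 were not called, so the lower call rests on 1 gene. All 13 macrophage markers were called higher in iWAT under both labels (summed 1281 to 1784 CPM in iWAT and 109.8 to 350.6 CPM in the pituitary of labelled KO, 1284 to 2663 CPM in iWAT and 124.1 to 144.2 CPM in the pituitary of labelled WT). All 7 dendritic cell and all 5 NK cell markers were called higher too. Over all genes tested, 37.8% were called higher in labelled KO and 38.9% in labelled WT. The 13 lymph node B and T cell markers summed to 27.9 to 1736 CPM in iWAT and 27.1 to 38.4 CPM in the pituitary of labelled KO, and to 419.5 to 1704 CPM in iWAT and 27.7 to 34.0 CPM in the pituitary of labelled WT. No macrophage marker was at 0 in any library, and Cd3d was at 0 in 5 pituitary libraries. The part of these cells in the tissue differences was not tested.

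The wider pathway was read from lists of other genes. Of 13 interferon genes only Ifnk passed the filter on low counts. Over 10 libraries Ifnb1 had 2 counts in iWAT and 0 in the pituitary, and Ifng had 63 counts in iWAT and 7 in the pituitary. Ifnk, the gene of interferon kappa, had 261 counts in iWAT and 79 in the pituitary, and was called higher in iWAT under both labels (log2 fold changes 1.75, SE 0.29, in labelled KO and 1.71, SE 0.26, in labelled WT). Over all genes tested, 37.8% were called higher and 37.3% lower in iWAT of labelled KO, and 38.9% and 40.2% in labelled WT. Of 26 receptor and signalling genes tested, 23 were called higher and 1 lower in iWAT under both labels. The widest were Tlr9, an endosomal DNA sensor (log2 fold change 4.78 in labelled KO and 5.25 in labelled WT), Irf8, a transcription factor of myeloid and B cells (4.43 and 4.82), and Ifi204, a DNA sensor (4.11 and 4.53). The 1 lower gene, named after its values were seen, was Ifnlr1, the type III interferon receptor chain, with log2 fold changes of -1.80 in labelled KO and -1.66 in labelled WT.

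The next 2 lists are also set against all genes tested, of which 37.8% were called higher and 37.3% lower in labelled KO. In labelled WT these shares were 38.9% and 40.2%. Of 44 further interferon-induced genes, 33 were called higher and 4 lower in iWAT of labelled KO, and 36 higher and 2 lower in iWAT of labelled WT. Ms4a4c, which encodes a membrane protein, had the widest difference (log2 fold change 6.95 in labelled KO and 7.05 in labelled WT), followed in labelled WT by Epsti1 (6.41 and 6.52) and the T cell chemokine Cxcl9 (6.95 and 6.41). The exonuclease gene Isg20 (-1.20 and -1.41) and Cmpk2, a mitochondrial nucleotide kinase gene (-0.78 and -0.53), both named after their values were seen, were lower under both labels. Eif2ak2 and Parp12, also named after their values were seen, were called lower in labelled KO as well, with no call in labelled WT, and the difference between labels was not tested for them. All 15 genes of MHC and peptide loading were called higher in iWAT under both labels, led by the MHC class I activator Nlrc5 (4.63 and 4.91), the MHC class II activator Ciita (4.29 and 4.55) and H2-Aa, a class II chain (3.77 and 4.36).

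**Figure D2:**
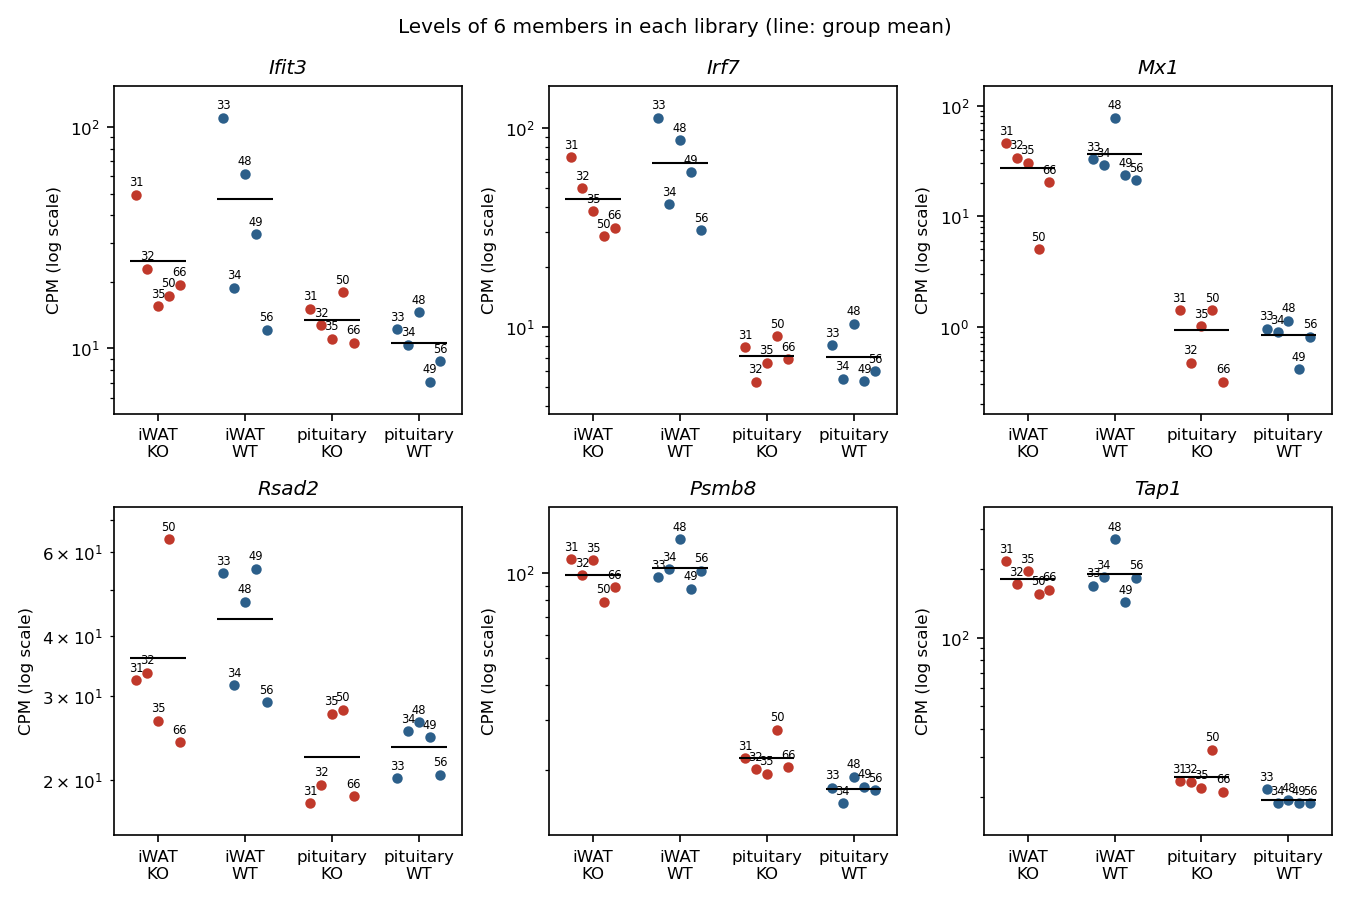
CPM on a log axis is plotted for 6 of the 35 genes in every library, by tissue and label, with replicate numbers beside the points and a line at the group mean. Irf7, Mx1, Psmb8 and Tap1 separate the tissues, Rsad2 and Ifit3 do not in every library, and iWAT replicates 31, 33 and 48 hold the high points of Ifit3 and Irf7.

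The 35 genes, like genes in general here, varied more between iWAT libraries than between pituitary libraries. The median biological coefficient of variation that edgeR fitted per gene was 0.357 in iWAT and 0.138 in the pituitary for the members, and 0.221 in iWAT and 0.095 in the pituitary over all genes tested. The coefficient of variation over 10 libraries was larger in iWAT for 32 of the 35, with a median of 35.4% in iWAT and 17.9% in the pituitary. The iWAT libraries with high values were replicate 31, labelled KO, and replicates 33 and 48, labelled WT. The summed level of the 35 was 2277, 1689, 1629, 1459 and 1502 CPM in labelled KO replicates 31, 32, 35, 50 and 66, and 2525, 1630, 2409, 1709 and 1435 CPM in labelled WT replicates 33, 34, 48, 49 and 56. Replicate 31 lay above the iWAT median for 33 of 35 genes, replicate 33 for 32 and replicate 48 for 34, and the highest iWAT library was replicate 31 for 6 genes, 33 for 16 and 48 for 12. The lowest was replicate 50 for 16 genes and replicate 56 for 14. So both labels contained a high and a low library.

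The high libraries differed by role. For the 10 RNA-directed and ISG15 genes the median level relative to the iWAT median was 1.90-fold in replicate 31, 2.91-fold in replicate 33 and 1.82-fold in replicate 48. For the 3 antigen processing genes it was 1.15-fold in replicate 31, 0.965-fold in replicate 33 and 1.38-fold in replicate 48. Ifit3, whose human counterpart is a partner of the cap-sensing protein IFIT1, was at 49.5, 22.9, 15.5, 17.3 and 19.4 CPM in labelled KO replicates 31, 32, 35, 50 and 66 and 110.3, 18.8, 61.5, 32.8 and 12.2 CPM in labelled WT replicates 33, 34, 48, 49 and 56. Isg15, the ubiquitin-like modifier, was also highest in replicates 33 and 31, while its level in replicate 48 was close to that in replicate 32. It was at 10.6, 4.97, 2.76, 2.86 and 2.62 CPM in labelled KO and 16.4, 2.89, 5.11, 3.14 and 1.25 CPM in labelled WT, in the same order of replicates. Rsad2, which encodes viperin, differed from both: its highest iWAT value was 63.8 CPM in replicate 50. It was at 24.0 to 33.5 CPM in the other labelled KO libraries and 29.1 to 55.4 CPM in labelled WT. Replicate 33, the highest for Ifit3 and Isg15, was thus not raised for antigen processing.

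Marker sums were read in the same iWAT libraries. Lymph node markers summed to 1736 CPM in replicate 31 and 1704 CPM in replicate 48, the highest 2 of 10, and to 937.8 CPM in replicate 33, which ranked below replicates 34, 35, 56 and 66. In replicate 50 they summed to 27.9 CPM, and there Mx1 was at 5.00 CPM against 20.4 CPM or more in the other 9 libraries. Macrophage markers summed to 1643 CPM in replicate 31, 1629 CPM in replicate 33 and 2070 CPM in replicate 48, and were highest in replicate 49 at 2663 CPM, where the 35 genes summed to 1709 CPM. The part of these cells in the spread between libraries was not tested.

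**Figure D3:**
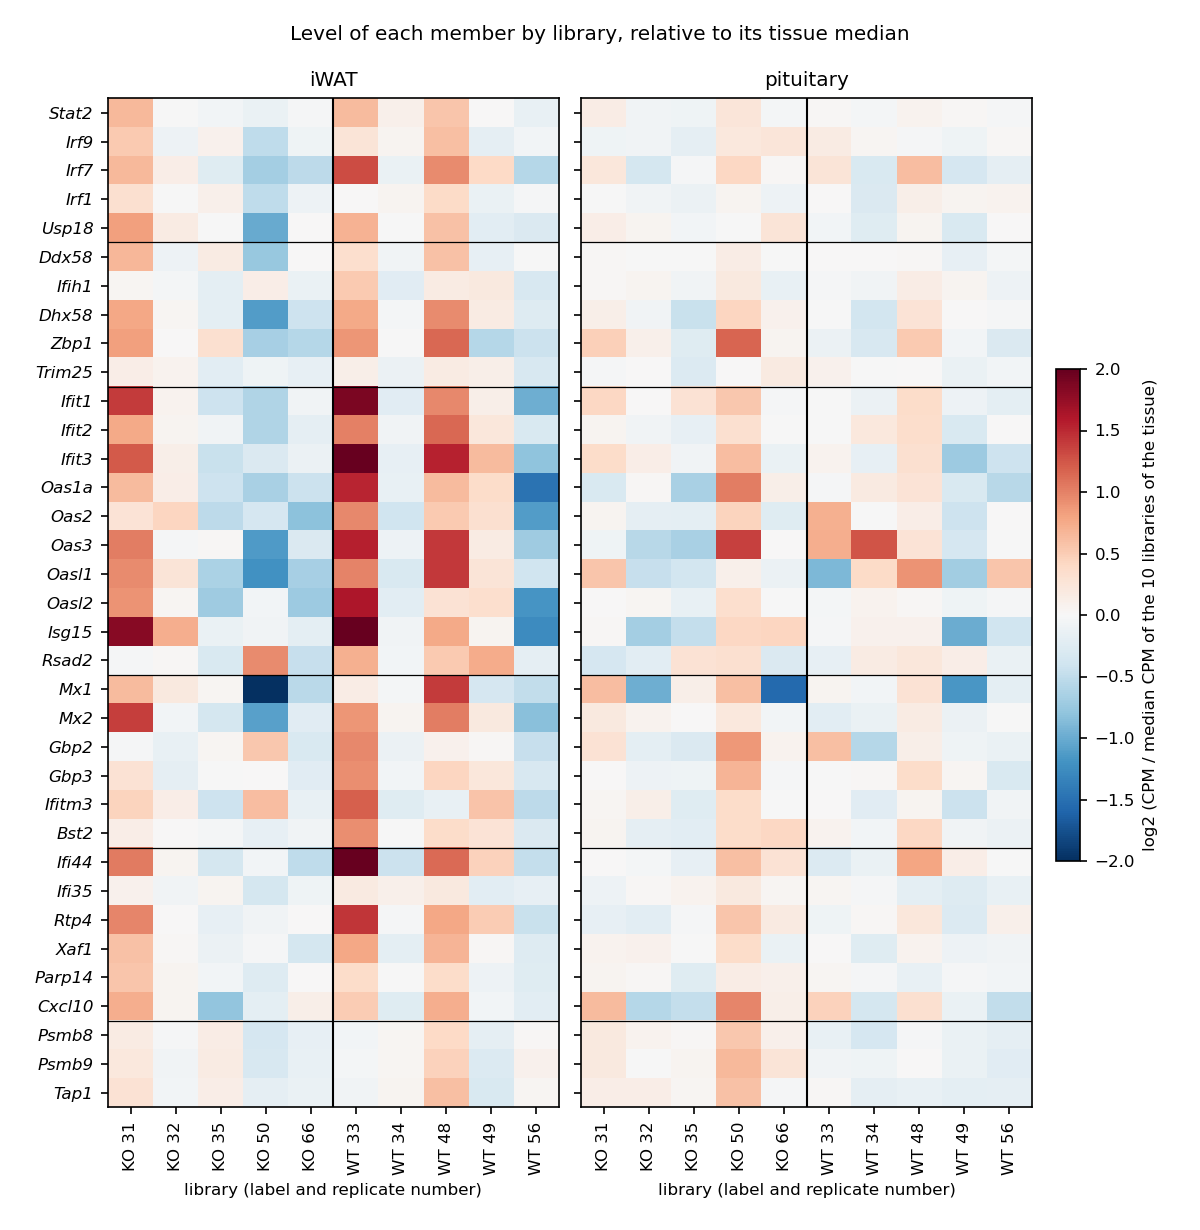
Each cell shows the log2 ratio of a gene's CPM in a library to its median over the 10 libraries of that tissue, with genes in blocks by role, labelled KO left of labelled WT, and colours capped at 2 in either direction. In iWAT the columns of replicates 31, 33 and 48 are red for most genes, and in the pituitary the column of replicate 50.

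**Figure D4:**
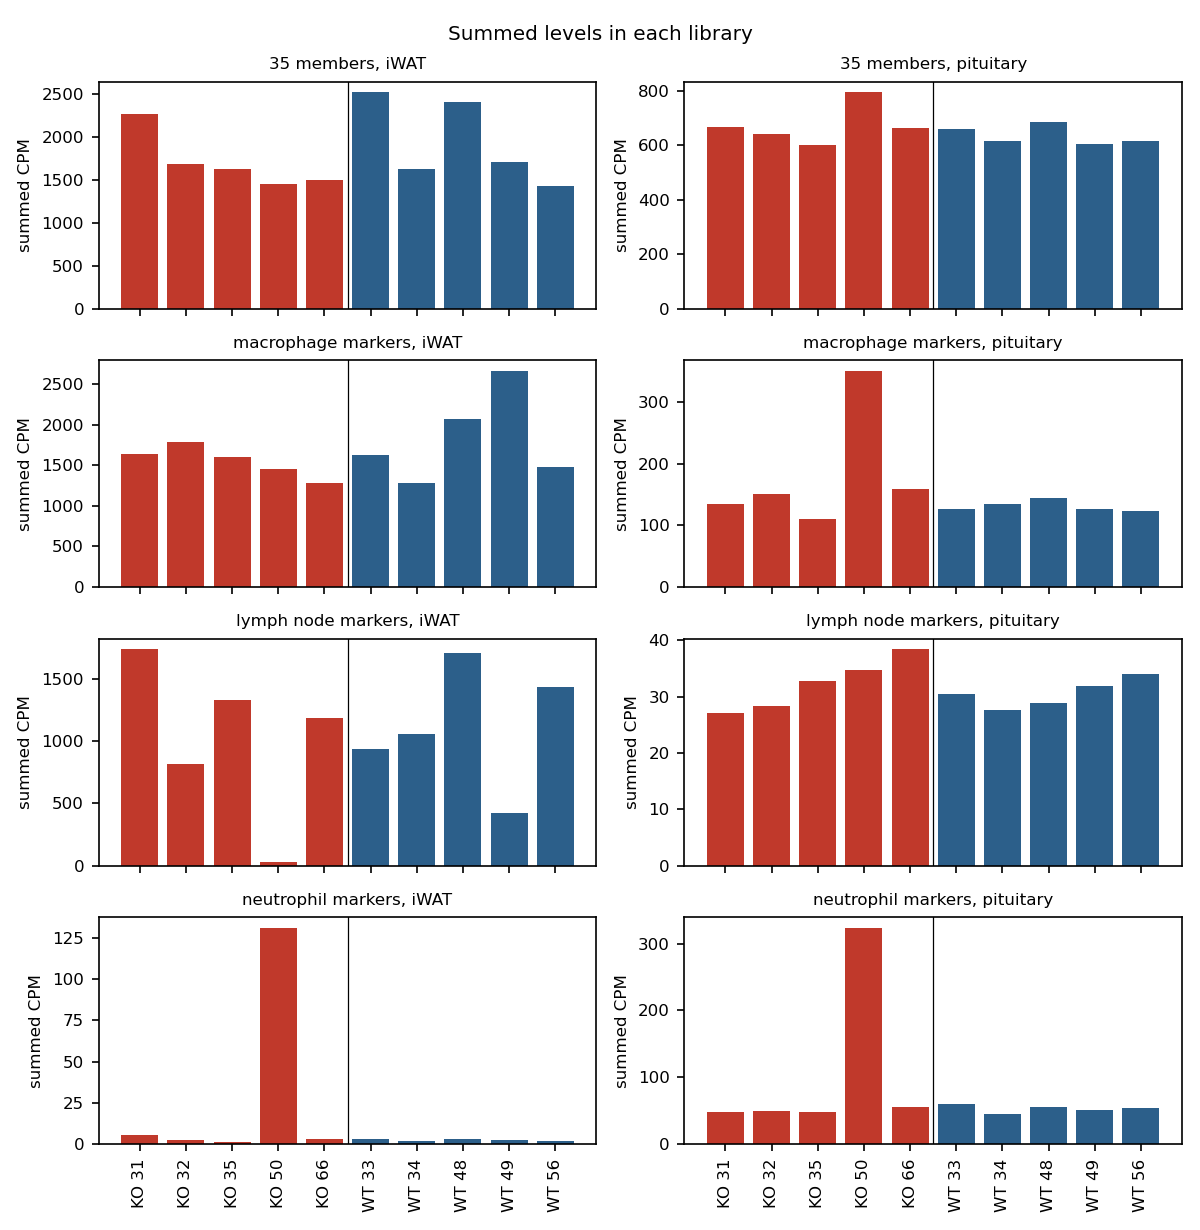
Bars give the summed CPM of the 35 genes and of 3 marker lists in each library, iWAT on the left and the pituitary on the right, with labelled KO in red and labelled WT in blue and a y axis of its own in each panel. Replicates 31, 33 and 48 are highest for the 35 genes in iWAT, and replicate 50 is highest for the 35 genes, the macrophage and the neutrophil markers in the pituitary.

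In the pituitary the library that stood out was replicate 50, labelled KO. It lay above the pituitary median for 34 of 35 genes and was the highest of the 10 for 23. The summed level of the 35 was 666.9, 641.6, 602.0, 794.2 and 662.0 CPM in labelled KO replicates 31, 32, 35, 50 and 66, and 659.2, 614.0, 684.3, 606.1 and 613.6 CPM in labelled WT replicates 33, 34, 48, 49 and 56. The same number in iWAT lay above the iWAT median for 5 of 35 genes. Replicates 31 and 48, high in iWAT, lay above the pituitary median for 27 and 30 of 35 genes, and replicate 33 for 18. In pituitary replicate 50 the macrophage markers summed to 350.6 CPM, against 109.8 to 159.4 CPM in the other 9 libraries, and the MHC genes to 2056 CPM, against at most 1332 CPM.

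Libraries labelled KO were then compared with those labelled WT in iWAT, the question being whether deletion of Klf14 alters expression there. No member was called (edgeR, 0 of 35 at adjusted p under 0.05), and 0% of all 16105 genes tested were. At an unadjusted p under 0.05 there were 0 of 35 members and 89 of all genes (0.553%), and DESeq2 and limma voom also called 0 members. All 35 log2 fold changes were below 0, where 49.9% of all genes lay above 0, with a median of -0.27 (-0.0002 over all genes tested) and a range of -0.92 for Ifit3 to -0.01 for Parp14. The groups overlapped for all 35, where 0.0745% of all genes tested had groups that did not. The shared sign rested in part on the 2 high libraries labelled WT: without replicate 33, 28 of 35 were below 0 with a median of -0.10, and without replicate 48, 26 of 35 were.

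The 6 members with the smallest unadjusted p in iWAT were Bst2, Irf7, Ifit3, Ifi44, Gbp3 and Ifit2, with edgeR p of 0.123 to 0.206 and adjusted p of 1 for each. Bst2 was at 41.6, 38.0, 36.7, 33.9 and 35.9 CPM in labelled KO replicates 31, 32, 35, 50 and 66 and at 72.0, 37.6, 48.6, 45.5 and 31.0 CPM in labelled WT replicates 33, 34, 48, 49 and 56, a log2 fold change of -0.34 (SE 0.20). Ifi44, a gene induced by type I interferon, was at 13.2, 6.60, 4.98, 6.15 and 4.47 CPM in labelled KO and at 29.6, 4.75, 14.0, 8.76 and 4.56 CPM in labelled WT, in the same order, a log2 fold change of -0.81 (SE 0.54). Replicates 31, 33 and 48 were again the high libraries of Ifi44, and the rest of each group overlapped. Ifit3 (-0.92, SE 0.58), Irf7 (-0.60, SE 0.38), Ifit2 (-0.45, SE 0.33) and Gbp3 (-0.32, SE 0.22) lay within 2 standard errors of 0. By role the median was -0.44 for the RNA-directed and ISG15 genes and -0.09 for the antigen processing genes. All 13 macrophage markers also lay below 0 (median -0.27, 0 called), and their part was not tested beyond the fit with a macrophage score, in which 32 of 35 members lay below 0.

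In the pituitary 0 of the 34 members tested were called (edgeR; Cxcl10 was too low to test), where 0.549% of all 16389 genes tested were, and DESeq2 and limma voom also called 0 members. At an unadjusted p under 0.05 there were 4 of 34 members and 10.9% of all genes. Of the 34 log2 fold changes 25 were above 0 (51.2% of all genes), with a median of 0.07 (0.0036 over all genes tested). Without replicate 50, 14 of 34 were above 0 and the median was -0.03. In the 21-week mice alone 17 of 35 were above 0. So the sign of the members as a group was not the same without that library.

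The 3 antigen processing genes had the smallest unadjusted p. They lie side by side in the MHC region of chromosome 17 (mm10): Psmb9 at chr17:34182099-34187330 on the minus strand, Tap1 at chr17:34187556-34197225 and Psmb8 at chr17:34198195-34201454, both on the plus strand. Psmb9 and Tap1 are transcribed away from each other across 225 bases, chr17:34187331-34187555, shown on the plus strand because 2 of the 3 genes start at its ends. It was chosen after the values were seen, and neither motif core was found in it.
Psmb9-Tap1: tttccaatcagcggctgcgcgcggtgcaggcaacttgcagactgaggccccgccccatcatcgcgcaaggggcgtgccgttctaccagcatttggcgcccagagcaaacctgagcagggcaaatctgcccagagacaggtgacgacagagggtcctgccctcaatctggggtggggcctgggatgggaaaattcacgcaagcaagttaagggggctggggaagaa

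Psmb8 was at 22.0, 20.1, 19.4, 27.8 and 20.5 CPM in pituitary libraries labelled KO (replicates 31, 32, 35, 50 and 66) and at 17.3, 15.2, 18.9, 17.4 and 16.9 CPM in those labelled WT (33, 34, 48, 49 and 56). It was the only member whose groups did not overlap, where 2.85% of all genes tested had such groups, and its log2 fold change was 0.35 (SE 0.10, edgeR adjusted p = 0.150). Tap1 was at 23.6, 23.4, 22.0, 32.3 and 21.1 CPM in labelled KO and at 21.7, 18.8, 19.4, 18.8 and 18.8 CPM in labelled WT, in the same order (0.32, SE 0.10, edgeR adjusted p = 0.220). Psmb9 was at 12.1, 10.5, 10.9, 16.5 and 12.7 CPM in labelled KO and at 10.1, 9.93, 10.7, 9.60 and 9.08 CPM in labelled WT (0.33, SE 0.12, edgeR adjusted p = 0.275). For Tap1 and Psmb9, 1 labelled WT library each lay within the labelled KO range. Replicate 50 was the highest library for all 3, and without it the log2 fold changes were 0.25 for Psmb8, 0.20 for Tap1 and 0.22 for Psmb9. The other 15 genes of MHC and peptide loading all had log2 fold changes above 0 (median 0.22), where 51.2% of all genes did. Of these 15, 0 were called and 4 had an unadjusted p under 0.05 (10.9% of all genes). They summed to 2056 CPM in replicate 50, against a median of 1287 CPM in labelled KO and 1148 to 1332 CPM in labelled WT. Whether their shared sign held without replicate 50 was not tested.

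The next 3 members by p were Ifi35 (log2 fold change 0.16, SE 0.07), Usp18 (0.18, SE 0.09) and Ifit1 (0.25, SE 0.14), all with overlapping groups. The RNA-directed and ISG15 genes had 5 log2 fold changes above and 5 below 0. Of the receptor and signalling genes, Ifnlr1 came closest to the threshold, with 8.93 to 10.1 CPM in labelled KO and 10.4 to 13.8 CPM in labelled WT, a log2 fold change of -0.42 (SE 0.09, edgeR adjusted p = 0.0572). No gene of the ligand, receptor, further induced or MHC lists was called between the labels in either tissue. Of the macrophage markers, 12 of 13 had log2 fold changes above 0 (51.2% of all genes), with a median of 0.36 and 0 called. With a macrophage score in the fit 15 of 34 members were above 0. Replicate 50 had the highest macrophage sum, and without it 14 of 34 were above 0. Over 9 settings that kept or split the libraries otherwise, the macrophage score among them, the lowest log2 fold changes were 0.25 for Psmb8, 0.15 for Tap1 and 0.21 for Psmb9. The part of macrophages was not tested further.

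**Figure D5:**
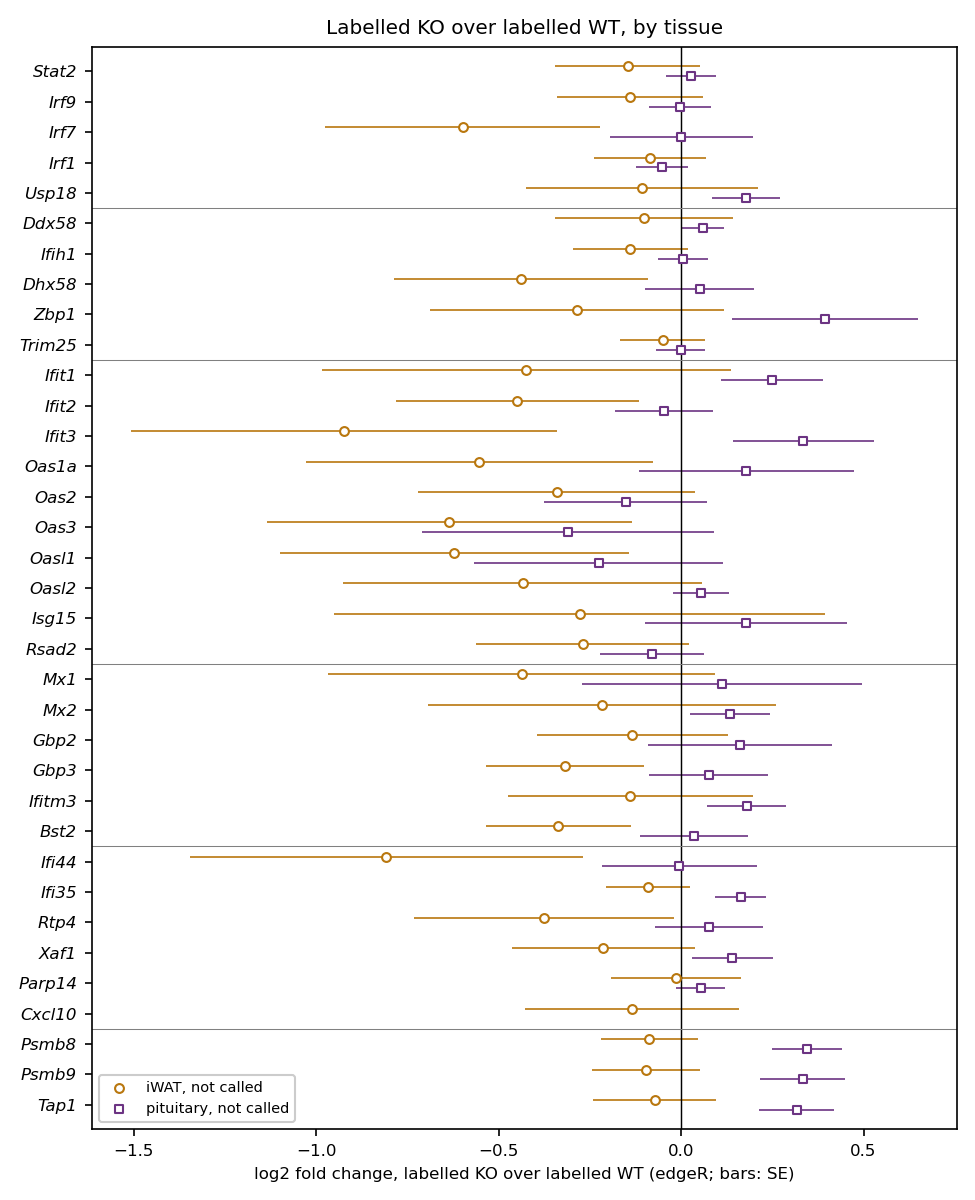
The log2 fold change of each gene, labelled KO over labelled WT, is plotted on the x axis with its standard error as a bar, for iWAT (circles) and the pituitary (squares), in blocks by role. All symbols are open because no gene was called, all 35 iWAT values lie below 0, and the pituitary values lie on both sides of it with Psmb8, Psmb9 and Tap1 at 0.32 to 0.35 (Cxcl10 was not tested there).

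The difference of the labelled KO effect, iWAT minus pituitary, was tested over all 20 libraries and so shares them with the comparisons above. No member was called (edgeR, 0 of 35), 0% of all 17731 genes tested were, and DESeq2 and limma voom also called 0 members. At an unadjusted p under 0.05 there were 2 of 35 members and 2.41% of all genes. These 2 were Psmb8, with a difference of -0.41 log2 units (SE 0.17), and Psmb9, with -0.40 (SE 0.19), and the edgeR adjusted p was 1 for both. The largest difference in size was that of Ifit3, -1.24 (SE 0.66). All 35 differences were below 0 (median -0.35, against 0.03 over all genes tested, of which 56.7% lay above 0), and 30 of 35 were below 0 without replicate 50.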

How the data were processed

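Poly(A) RNA was sequenced as single-end reads in 10 iWAT and 10 pituitary libraries. The deposited files hold raw counts per gene, which the authors made with featureCounts 1.4.4 over exons of UCSC mm10 genes, per the file headers: primary alignments, reads over several genes counted for each, no strand option. Per the submitters' processing notes, reads were aligned with STAR 2.4.0. Reads from overlapping genes cannot be told apart.

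Counts were fitted in R 4.3.3 with edgeR 4.0.16 (low-count filter filterByExpr, TMM, robust quasi-likelihood test, Benjamini-Hochberg over all genes tested, threshold 0.05), per tissue for labelled KO over labelled WT, per label for iWAT over pituitary, and over all 20 libraries for the difference. CPM values use TMM scaling over the 20 libraries. Library pairs within a group differed by more than sampling noise (reduced chi-square of 4.70 or more). DESeq2 1.42.0, limma 3.58.1 voom and other settings were alternatives, and the fits were tested on simulated data.

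The members and gene lists were chosen with earlier results of these data known. Genes named in full are those past the threshold between labels, the 6 smallest p per tissue, the 5 highest levels, the 6 widest tissue differences, those not called there, those with an outlying library, and 3 per pathway list. Of the listed genes, Ifi16, Ifit3b and Ly6g were not matched by symbol, and Emr1 stands for Adgre1.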

Additional observations from a re-analysis of the deposited data

Results flagged for a closer look

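In 17 of 140 gene and group combinations, 1 library lay far outside the other 4 of its group by Dixon's test. For independent, normally distributed values chance does this in about 1 of 20. CPM was used without a log transform and the genes share libraries, so 17 of 140 cannot be set against that rate. Labelled KO replicate 31 was far above the other iWAT libraries of its label for Ifi44 at 13.2 CPM, Ifit1 at 36.6 CPM, Ifit3 at 49.5 CPM, Mx2 at 17.7 CPM, Rtp4 at 26.4 CPM and Stat2 at 104.4 CPM. Labelled KO replicate 50 was far above the same group for Rsad2 at 63.8 CPM. In iWAT libraries labelled WT, replicate 33 was far above for Gbp2 at 130.3 CPM and Isg15 at 16.4 CPM, and replicate 48 for Mx1 at 77.8 CPM. In pituitary libraries labelled KO, replicate 50 was far above for Ddx58 at 34.4 CPM, Gbp3 at 47.4 CPM, Oas3 at 1.77 CPM and Tap1 at 32.3 CPM. In pituitary libraries labelled WT, replicate 33 was far above for Tap1 at 21.7 CPM, and replicate 48 for Ifit1 at 8.49 CPM and Zbp1 at 6.77 CPM. Each of these was the highest library of its group.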

How the results depend on the processing

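The count of members called was 0 between the labels, in both tissues and for the difference, under every alternative run. Between the tissues it was 28 to 33 of 35 in labelled KO and 31 to 33 in labelled WT, counting both directions. Called higher in iWAT were 28 to 32 in labelled KO and 31 to 33 in labelled WT, and Oasl2 was the only member called lower in any fit. Leaving out 1 library at a time, the median log2 fold change of the members ranged from -0.41 to -0.10 in iWAT and -0.03 to 0.16 in the pituitary. For the difference and for iWAT over pituitary, the iWAT and pituitary libraries of a replicate number were left out together. The median then ranged from -0.49 to -0.11 for the difference. For iWAT over pituitary it ranged from 1.22 to 1.37 in labelled KO and from 1.57 to 1.99 in labelled WT. With limma voom the labelled WT median was 1.32, and the cause was not tested. In labelled KO, Dhx58 and Gbp3 were not called higher in iWAT without replicate 31, 32 or 35, Rsad2 without 31 or 32, and Ifit3 without 32. Ifih1 was not called in labelled WT without 33, and Mx2 was called there without 56. Signs of uncalled genes turned for Oasl2 in labelled WT (0.034 without replicate 34 and 0.13 without 56, range -0.68 to 0.13), Ifi35 in labelled KO (0.0048 with voom and 0.041 without 50) and Mx2 in labelled KO (-0.23 without 31, range -0.23 to 0.51). The cause was not tested. Over all genes, pituitary calls between the labels numbered 90, against 288 with DESeq2, 44 with age as a covariate, 5 in 21-week mice, 1 in a fit over all 20 libraries and 50 to 112 without 1 library (50 without replicate 49, 51 without 56, 55 without 32). For the difference DESeq2 called 1 gene and edgeR 0.

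Replicate numbers are shared between the tissues and not between the labels. Same-numbered libraries deviated together only weakly (correlations of -0.07 to 0.12 over 14854 genes). Weak correlation across tissues cannot decide whether a number is 1 animal, and the main fits did not pair the libraries. As a hint from the data, 7 of 10 numbers correlated best with their own number in the other tissue. With the number as a replicate block the members called in iWAT over pituitary were 33 in labelled KO, where Oasl2 became lower (-0.70), and 32 in labelled WT, with 0 for the difference. The median was 1.27, 1.59 and -0.30, in that order. In the pituitary Isg15, Mx1, Oas3 and Cxcl10 had at most 26 counts in any library, so depth limits their values there.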
